A study of Mus musculus with 6 samples.

Results

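The 4 Hox clusters of the mouse genome were examined for 5-hydroxymethylcytosine (5hmC) and 5-formylcytosine (5fC) in E14 cells, an established line of mouse embryonic stem cells. The clusters are 4 fixed intervals of the mm9 build, chosen by position, out of a nuclear genome that holds 22005 whole windows of 120 kb. Hoxa was taken as chromosome 6 from 52100001 to 52222000 (122 kb) and Hoxb as chromosome 11 from 96115001 to 96235000 (120 kb). Hoxc was taken as chromosome 15 from 102745001 to 102870000 (125 kb) and Hoxd as chromosome 2 from 74490001 to 74608000 (118 kb). Each was set beside the 500 kb on both of its sides, here called its flanks.

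The DNA came from undifferentiated cells grown with serum and leukemia inhibitory factor on gelatin. In Pvu-Seal-seq the nuclease PvuRts1I cuts at a short distance from 5hmC, an azide sugar is added to the base for capture, and the cut end points back to 1 cytosine. The labels describe 2 technical replicates of 5hmC and 2 of 5fC at passage 14, and 2 of 5hmC at passage 12. Each deposited table, 1 for each mark, gives a single pooled number of reads for a cytosine. The spread between libraries is therefore unknown for all values, and samples could not be tested against each other. Intervals are at the 95% level and cover counting error only, since neighbouring cytosines share fragments and PCR copies were not told apart by molecular identifiers.

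Hox genes encode homeodomain transcription factors that give cells their position along the body axis. Within a cluster they are transcribed in the order of their paralog numbers as the embryo develops. In embryonic stem cells the clusters are mostly silent and are a textbook target of Polycomb proteins, and their many CpG islands are known to be kept largely free of DNA methylation. TET enzymes oxidise 5-methylcytosine to 5hmC and on to 5fC, which the glycosylase TDG can remove. By the RefSeq gene table, which is of the GRCm38.p6 assembly and was used for names and order only, the clusters hold 39 Hox genes: 11 in Hoxa, 10 in Hoxb, 9 in Hoxc and 9 in Hoxd. Paralog numbers rise with the coordinate in Hoxa and fall with it in the other 3. The Hoxb interval is shorter than the span from Hoxb13 to Hoxb1 in that assembly, so at that length it would not hold all of the Hoxb genes. Because no mm9 annotation was used, no listed cytosine is placed in a gene, exon, intron or promoter here.

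Both marks were listed mainly at CG dinucleotides, whose number differs widely between Hox promoters. The table holds 10 promoters of Hoxa, 3 of Hoxb, 1 of Hoxc and 10 of Hoxd. The promoter with the most CG in Hoxa, Hoxb and Hoxd, and the only one in Hoxc, are shown so that this spread can be seen, as the 250 bases before the annotated start, 5′ to 3′ along the gene, from RefSeq on GRCm38.p6 and with every CG in capitals. Their positions in that build are chr6:52260881-52261130 (-) for Hoxa13, chr11:96318017-96318266 (+) for Hoxb4, chr15:103034145-103034394 (+) for Hoxc4 and chr2:74667975-74668224 (+) for Hoxd13. They cannot be laid on the mm9 positions used elsewhere in the text.
Hoxa13: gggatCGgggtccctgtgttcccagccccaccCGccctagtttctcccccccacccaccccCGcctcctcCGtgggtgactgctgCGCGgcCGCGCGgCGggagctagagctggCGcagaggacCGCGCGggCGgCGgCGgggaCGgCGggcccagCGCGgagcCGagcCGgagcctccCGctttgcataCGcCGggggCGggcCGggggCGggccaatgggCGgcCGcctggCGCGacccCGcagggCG
Hoxb4: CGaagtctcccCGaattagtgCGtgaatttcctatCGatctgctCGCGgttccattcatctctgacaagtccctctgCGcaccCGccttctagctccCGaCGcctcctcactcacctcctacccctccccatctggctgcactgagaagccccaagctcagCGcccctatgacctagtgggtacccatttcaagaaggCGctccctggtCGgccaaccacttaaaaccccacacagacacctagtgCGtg
Hoxc4: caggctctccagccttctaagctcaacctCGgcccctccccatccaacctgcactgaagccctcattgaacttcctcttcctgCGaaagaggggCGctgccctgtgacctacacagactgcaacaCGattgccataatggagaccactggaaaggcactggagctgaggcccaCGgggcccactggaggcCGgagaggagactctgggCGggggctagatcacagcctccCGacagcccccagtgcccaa
Hoxd13: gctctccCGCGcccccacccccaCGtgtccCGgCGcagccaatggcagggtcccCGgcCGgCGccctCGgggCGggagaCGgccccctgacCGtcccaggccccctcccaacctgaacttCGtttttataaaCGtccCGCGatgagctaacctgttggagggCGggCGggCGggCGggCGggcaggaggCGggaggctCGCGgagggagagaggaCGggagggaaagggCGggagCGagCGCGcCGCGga
The motif counted was CG, which reads the same on both strands. Hoxa13, Hoxb4, Hoxc4 and Hoxd13 had 35, 14, 8 and 31 CG in these 250 bases, and 2.97%, 29.4%, 43.0% and 5.19% of all 32851 promoters in the table had at least as many. Over the 24 Hox promoters in the table, of 22 genes, the median was 12.5 CG with a range from 2 to 35, against a median of 6 over all promoters. At least 10 CG were found in 15 of the 24, and in 37.8% of all promoters. At least 1 CG was present in 92.1% of all promoters.

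The clusters held more listed CG dyads per kb than their flanks. A dyad is a CG with its cytosine on each strand, listed if at least 1 of the cytosines was in the table. Hoxa had 1510 dyads with 5hmC, or 12.4 per kb, against 7.03 per kb in its flanks, a 1.76-fold difference (interval 1.67 to 1.86). Hoxb had 1574, or 13.1 per kb against 9.33, 1.41-fold (1.33 to 1.48), but 1.07-fold, with an interval that includes 1, when only cytosines with at least 10 reads were kept. Hoxc had 1243, or 9.94 per kb against 5.57, 1.78-fold (1.68 to 1.90). Hoxd had 1344, or 11.4 per kb against 6.06, 1.88-fold (1.77 to 1.99). The nuclear genome as a whole had 4.31 per kb. Against a single flank the fold lay between 1.35 and 2.16, the lowest for the high-coordinate flank of Hoxb and the highest for the low-coordinate flank of Hoxd. The number of CG in the mm9 sequence was not counted, so these are listed dyads per length and not shares of the CG present.

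The contrast was larger for 5fC than for 5hmC in all 4 clusters. Hoxa had 783 dyads with 5fC, 6.42 per kb against 2.73 in the flanks, 2.35-fold (2.17 to 2.55). Hoxb had 982, 8.18 per kb against 5.21, 1.57-fold (1.47 to 1.68). Hoxc had 713, 5.70 per kb against 2.28, 2.50-fold (2.30 to 2.72). Hoxd had 652, 5.53 per kb against 2.00, 2.77-fold (2.53 to 3.02). Hoxb lies on chromosome 11, which as a whole had 6.07 5hmC and 2.74 5fC dyads per kb, and its flanks were the densest of the 4 pairs.

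**Figure D1:**
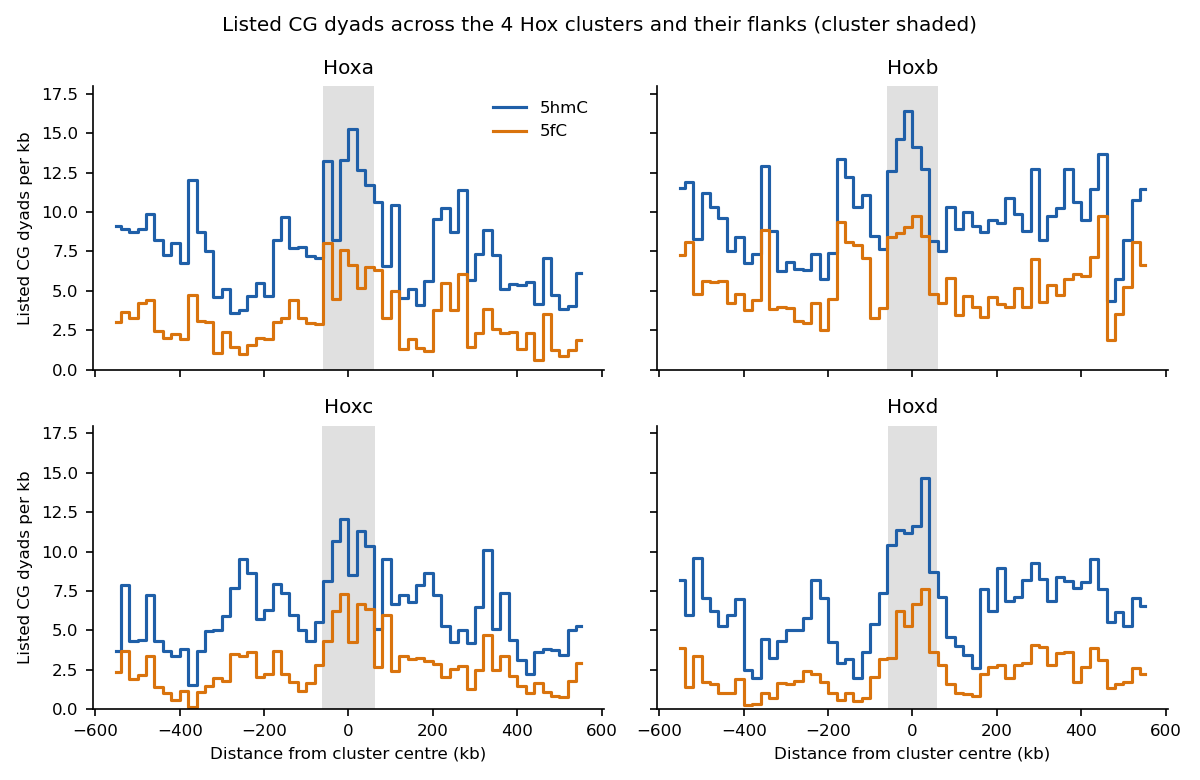
Listed CG dyads per kb (y axis) in steps of 20 kb by distance from the centre of each cluster (x axis), with 5hmC in blue, 5fC in orange and the cluster shaded. In each panel both marks rise over the shaded interval, to a cluster mean between 9.94 and 13.1 dyads per kb for 5hmC and between 5.53 and 8.18 for 5fC. Single steps outside the interval can be as high as the cluster mean. Around Hoxb the step at 450 kb had 13.7 5hmC and 9.75 5fC dyads per kb, and around Hoxc that at 330 kb had 10.1 5hmC dyads.

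To see how much neighbouring stretches vary, the flanks were divided into 8 windows as long as the cluster, 4 on each side. Flank windows held between 4.55 and 8.63 5hmC dyads per kb around Hoxa, 6.68 and 10.5 around Hoxb, 3.69 and 7.14 around Hoxc, and 3.77 and 7.97 around Hoxd. Each cluster lay above all 8 of its windows. Over the nuclear chromosomes 8.86% of 120 kb windows exceeded all 8 of their neighbours in this way. Those windows lay on a fixed grid, whereas the clusters are intervals placed around genes. This and the later genome-wide shares are therefore not a strictly matched background. For 5fC, flank windows reached at most 3.63, 6.60, 3.38 and 3.08 dyads per kb for Hoxa, Hoxb, Hoxc and Hoxd, again below each cluster, where the genome-wide share was 8.82%. Among 21997 windows of 120 kb that do not touch a cluster, Hoxa, Hoxb, Hoxc and Hoxd stood at percentiles 99.6, 99.8, 96.4 and 98.9 for 5hmC dyads per kb and 99.4, 99.9, 98.6 and 98.3 for 5fC.

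The dyads of the clusters carried few reads for such dense regions. The mean was 15.8 5hmC reads per dyad in Hoxa against 21.8 in its flanks, 20.1 against 31.2 in Hoxb, 16.2 against 21.5 in Hoxc and 14.6 against 19.5 in Hoxd. Medians were 11, 12, 11 and 10 reads in the clusters and 16, 21, 15 and 14 in the flanks. Among all windows of 120 kb with at least 1 5hmC dyad per kb, the cluster means stood at percentiles 43.8, 67.4, 46.0 and 37.3. In every case the cluster lay below all 8 flank windows, of which the lowest had 19.9, 27.9, 19.3 and 17.0 reads per dyad, where 8.53% of windows genome-wide lay below all of their neighbours. 5fC reads per dyad were also below all 8 windows in each cluster, at 18.0, 20.8, 17.5 and 16.5 against flank means of 21.8, 27.2, 19.9 and 21.8, with 9.55% genome-wide.

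Dyads with 8 or fewer 5hmC reads made up 41.4%, 35.8%, 42.1% and 45.8% of those in Hoxa, Hoxb, Hoxc and Hoxd, against 27.4%, 21.3%, 30.1% and 31.9% in the flanks. At the other end, dyads above 64 5hmC reads numbered 22, 68, 27 and 19 in the clusters. These were 1.46%, 4.32%, 2.17% and 1.41% of their dyads, against 3.95% in the nuclear genome. Per kb the clusters had 0.180, 0.567, 0.216 and 0.161 of them, and the nuclear genome 0.170. Per kb these deep dyads were at 0.582 times the flank level in Hoxa (interval 0.359 to 0.897) and 0.502 times in Hoxb (0.387 to 0.641). The corresponding values were 0.809 times in Hoxc (0.523 to 1.20) and 0.813 times in Hoxd (0.479 to 1.30), whose intervals include 1. The excess of dyads in the clusters over their flanks thus lay at low and middle read numbers.

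Summed over all listed cytosines, 5hmC reads were therefore closer to the flanks than dyads were. Hoxa had 226 reads per kb against 176, Hoxc 186 against 135 and Hoxd 193 against 134, whereas Hoxb had fewer than its flanks, 306 against 342. Reads of 5fC were higher in each cluster, at 144 against 74.6 per kb in Hoxa, 210 against 180 in Hoxb, 124 against 55.4 in Hoxc and 112 against 53.9 in Hoxd. Single flank windows could still exceed a cluster. For 5hmC reads per kb, 1 of 8 windows was above Hoxa, 6 above Hoxb, none above Hoxc and 1 above Hoxd. For 5fC reads per kb, 2 of 8 windows were above Hoxb and none above the other clusters.

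Listing on both strands was also rarer in the clusters than in their flanks. It was found for 34.8% of 5hmC dyads in Hoxa (interval 32.4 to 37.2%), 37.4% in Hoxb (35.1 to 39.8%), 33.0% in Hoxc (30.4 to 35.6%) and 29.5% in Hoxd (27.2 to 32.0%). The flanks had 43.6%, 49.2%, 40.9% and 41.3%, and the nuclear genome 39.6%. Among all windows of 120 kb with at least 1 5hmC dyad per kb, the clusters stood at percentiles 43.4, 52.7, 37.6 and 26.8. Their shares were thus low for their surroundings but not unusual genome-wide. Each cluster was below all 8 flank windows, whose lowest shares were 40.2%, 45.5%, 36.2% and 36.8%, and 8.96% of windows genome-wide lay below all of their neighbours. For 5fC the both-strand share was 18.5%, 24.8%, 19.5% and 16.4% in the clusters and 21.7%, 31.4%, 21.4% and 21.2% in the flanks. In each cluster 1 or 2 of the 8 flank windows lay lower still.

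**Figure D2:**
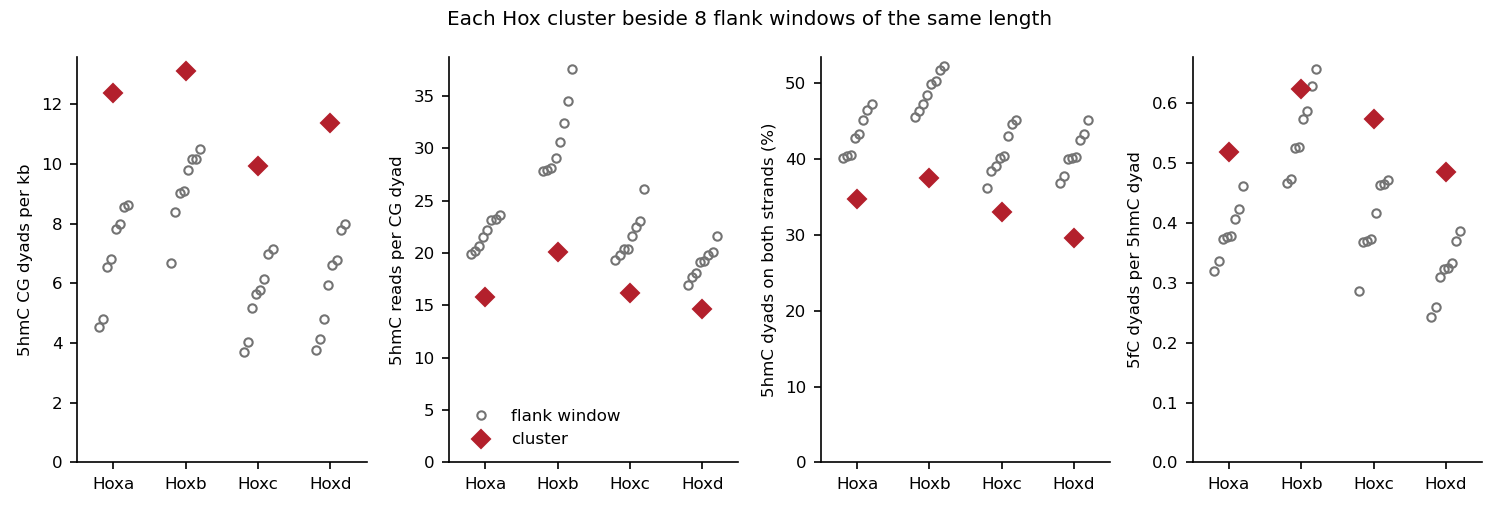
Each cluster (red diamond) beside its 8 flank windows of the same length (open circles, in order of value) for 5hmC CG dyads per kb, 5hmC reads per dyad, the percentage of 5hmC dyads listed on both strands and 5fC dyads per 5hmC dyad. The diamond lies above every circle in the first panel and below every circle in the panels of reads and strands. In the last panel it lies above every circle except for Hoxb, where 2 of 8 windows are higher.

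The clusters also had few reads per dyad beside other regions as dense as they were. The comparison was chosen after these values had been seen. Of the windows of 120 kb that touch no cluster, 782 (3.56%) had at least the 9.94 5hmC dyads per kb of Hoxc, the least dense cluster. These had a median of 24.0 5hmC reads per dyad, against 17.0 over 20086 windows with at least 1 5hmC dyad per kb, and a lowest value of 17.0. Hoxa, Hoxc and Hoxd, at 15.8, 16.2 and 14.6, were below all 782, and Hoxb was above 41 of them. The lowest both-strand share among the 782 windows was 37.7%, with a median of 45.6%, so that each of the 4 clusters was lower than every one of them. Without chromosomes 8 and 11, which held 103 and 107 of these windows, the lowest values were the same. When only cytosines with at least 10 reads were kept, 39.8% of 3547 windows as dense as Hoxc had fewer reads per dyad than Hoxb and 23.1% had a lower both-strand share, so Hoxb did not stand apart there. For the other 3 clusters these shares were at most 1.66%. A window that exceeded all 8 neighbours in 5hmC dyads per kb and lay below all 8 in reads per dyad, as each cluster did, occurred 17 times among 17840 windows, or 0.0953%. Those windows lay on the fixed grid and were not placed as the clusters were.

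**Figure D3:**
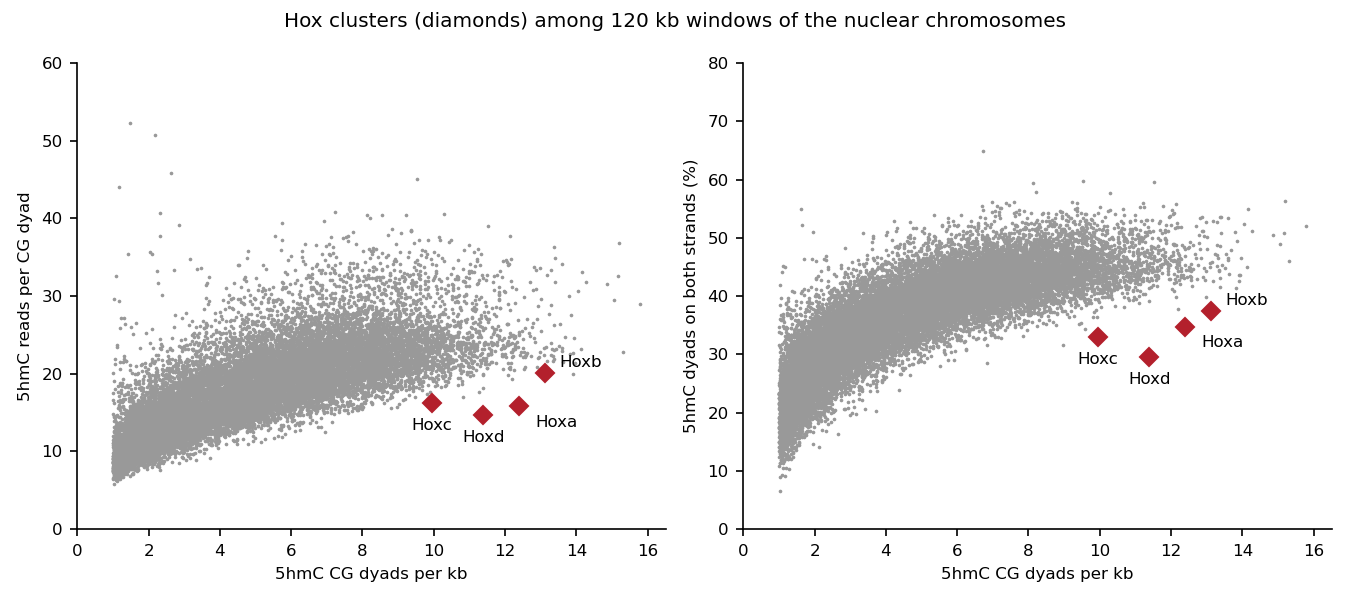
5hmC reads per CG dyad (left) and the percentage of 5hmC dyads on both strands (right) against 5hmC CG dyads per kb, for windows of 120 kb with at least 1 dyad per kb (grey) and the 4 clusters (red diamonds). The clusters lie at the lower edge of the cloud at their density, with both-strand shares between 29.5% and 37.4% where windows of at least 9.94 dyads per kb start at 37.7%. Of 20086 windows, 12 above 60 reads per dyad are outside the left panel.

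Both-strand shares were also compared at equal numbers of reads. Over the 4 clusters together, dyads with 9 to 16 5hmC reads were on both strands in 33.2% of cases (interval 30.7 to 35.7%), against 34.8% in the flanks (33.7 to 36.0%). With 17 to 32 reads the shares were 59.6% and 58.9%, and with 33 to 64 reads 75.9% and 75.8%. In each of the 6 read classes the intervals of clusters and flanks overlapped. Within single clusters, dyads with 9 to 16 reads were on both strands in 35.1%, 30.9%, 34.2% and 32.4% of cases in Hoxa, Hoxb, Hoxc and Hoxd, and in 36.0%, 31.6%, 35.4% and 36.5% in their flanks.

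Relative to 5hmC, 5fC was listed more often in the clusters. There were 0.519 5fC dyads per 5hmC dyad in Hoxa against 0.388 in its flanks, a 1.34-fold difference (interval 1.21 to 1.47). Hoxb had 0.624 against 0.558, 1.12-fold (1.02 to 1.22), Hoxc 0.574 against 0.409, 1.40-fold (1.26 to 1.56), and Hoxd 0.485 against 0.330, 1.47-fold (1.32 to 1.64). These intervals treat 5fC and 5hmC dyads as separate counts. Most 5fC dyads were also 5hmC dyads, so the intervals only approximate the counting error. Hoxa, Hoxc and Hoxd were above all 8 flank windows and Hoxb above 6, while 9.22% of windows genome-wide exceeded all of their neighbours. The genome-wide number was 0.342. Among the 782 dense windows the median was 0.489, and Hoxa, Hoxb, Hoxc and Hoxd stood at percentiles 67.4, 96.0, 88.1 and 48.0. Windows of like density thus often had as many 5fC dyads per 5hmC dyad as Hoxa and Hoxd. Fewer had as many as Hoxc, and few as many as Hoxb.

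At equal 5hmC reads a dyad of the clusters was more often also listed for 5fC. With 2 to 4 5hmC reads the share was 21.2% in the clusters (interval 18.9 to 23.7%) and 14.4% in the flanks (13.2 to 15.7%). With 9 to 16 reads it was 46.5% against 27.5%, and with 33 to 64 reads 82.3% against 70.2%. Above 64 reads the shares were 95.6% and 92.0%, with overlapping intervals. With 9 to 16 reads the direction was the same in each cluster, at 41.1% against 25.1% in Hoxa, 51.6% against 35.3% in Hoxb, 51.3% against 28.5% in Hoxc and 42.5% against 20.9% in Hoxd. With 2 to 4 reads Hoxb did not share it, at 21.6% against 22.5%.

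The reverse overlap was lower in the clusters. Of all 5fC dyads, 84.8% in Hoxa (interval 82.1 to 87.1%), 85.1% in Hoxb (82.8 to 87.2%), 84.9% in Hoxc (82.0 to 87.3%) and 85.0% in Hoxd (82.0 to 87.5%) were also listed for 5hmC. The flanks had 93.5%, 94.3%, 91.1% and 93.7%, and the nuclear genome 92.8%. All 8 flank windows of each cluster were higher, where 10.1% of windows genome-wide lay below all of their neighbours. The 782 dense windows ran down to 87.5%, above each cluster. In counts, 471 of 3130 5fC dyads of the clusters had no listed 5hmC, against 801 of 12210 in the flanks. A dyad missing from the 5hmC list is not shown to lack 5hmC, since the sources used here do not give the rule for listing.

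The difference was found in the 4 classes of up to 32 5fC reads. With 5 to 8 5fC reads, 76.0% of the dyads in the clusters had 5hmC (interval 72.5 to 79.3%) against 89.1% in the flanks (87.6 to 90.4%), and with 9 to 16 reads 83.0% against 90.8%. With 17 to 32 reads it was 90.9% (88.8 to 92.7%) against 96.0% (95.3 to 96.6%). With 33 to 64 reads the shares were 98.9% and 98.4%. In each cluster the share at 5 to 8 reads, between 74.4% and 81.1%, was below that of its flanks, between 86.2% and 93.0%.

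**Figure D4:**
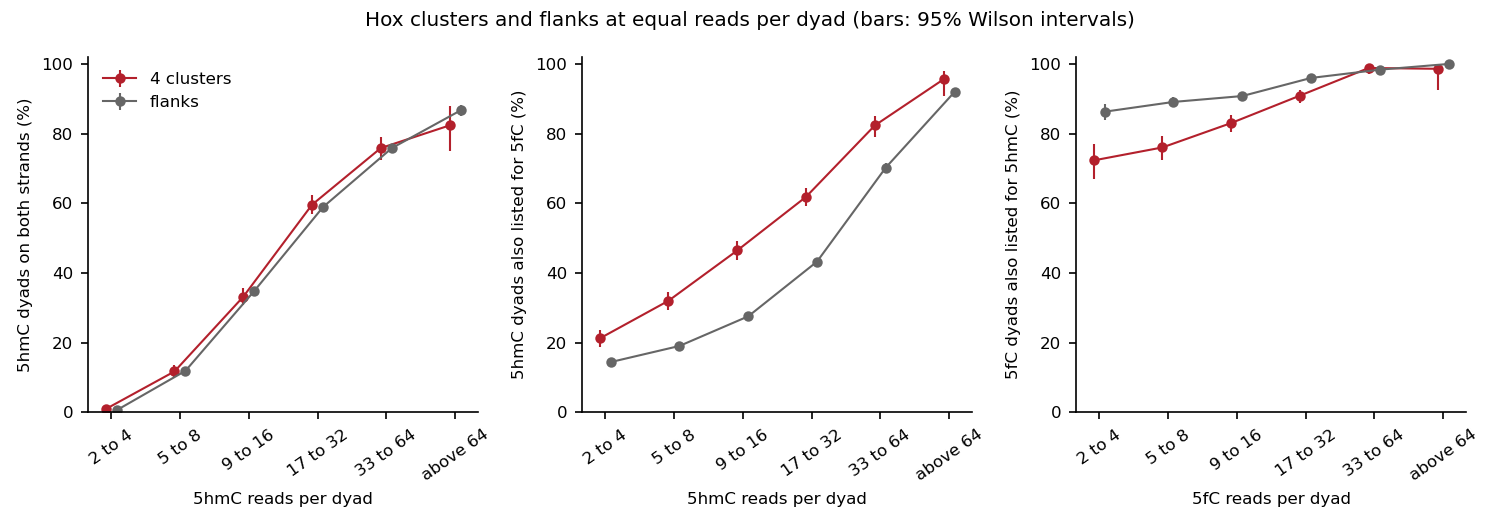
Dyads of the 4 clusters (red) and of their flanks (grey) in 6 classes of reads per dyad (x axis), as the percentage of 5hmC dyads on both strands (left), of 5hmC dyads also listed for 5fC (middle) and of 5fC dyads also listed for 5hmC (right), with bars for 95% Wilson intervals. On the left the groups overlap, in the middle the clusters are higher in the first 5 classes, for example 46.5% against 27.5% at 9 to 16 reads, and on the right they are lower up to 32 reads.

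Where both marks were listed on 1 strand of a dyad, they mostly shared it, in the clusters as elsewhere. Of 1242 such dyads in the clusters 78.7% carried them on the same strand, with an interval from 76.4 to 80.9%, against 80.4% of 4035 in the flanks (79.1 to 81.6%). Neither strand was favoured. The plus strand held 49.9% of 5hmC cytosines in the clusters (48.9 to 50.9%) and 49.8% of 5fC cytosines (48.4 to 51.2%).

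Listed dyads were spread through the clusters with few bare stretches. Of 485 bins of 1 kb, 4 held no 5hmC dyad (0.825%), 1 in Hoxa and 3 in Hoxc, against 3.78% of the flank bins and 19.9% of bins genome-wide. The count of 0 among 120 bins of Hoxb and 118 of Hoxd allows shares of up to 3.10% and 3.15% (upper Wilson bounds). At least 20 5hmC dyads were found in 73 bins (15.1%), namely 19, 23, 13 and 18 in Hoxa, Hoxb, Hoxc and Hoxd, against 2.40% in the flanks and 0.948% genome-wide. For 5fC, 35 bins (7.22%) were empty against 26.3% in the flanks and 55.4% genome-wide. At least 10 5fC dyads were found in 120 bins (24.7%), against 6.53% and 2.36%. The median distance between neighbouring 5hmC dyads was 40, 37, 42 and 42 bases in Hoxa, Hoxb, Hoxc and Hoxd, and between 53 and 87 bases in the 8 flanks.

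The longest stretch without a listed 5hmC dyad was in Hoxc, 2154 bases from position 102860863 to 102863017. In Hoxa it was 1302 bases from 52210287 to 52211589, in Hoxb 1191 bases from 96119053 to 96120244 and in Hoxd 1160 bases from 74542729 to 74543889. None of these 4 held a 5fC dyad. The next 2 in length of each cluster measured 999 to 1174 bases, and 1 of them, in Hoxa from 52108146 to 52109201, held 2 5fC dyads. Flanks reached longer, from 1924 bases at the high-coordinate side of Hoxa to 8189 at the low-coordinate side of Hoxc. Each flank spans 500 kb and a cluster 118 to 125 kb, so these longest stretches are not from equal lengths.

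The fullest bins by reads differed in how many dyads carried them. In Hoxb the bin from 96125001 to 96126000 led for both marks, with 1303 5hmC reads on 32 dyads and 1489 5fC reads on 29 dyads, so 5fC reads outnumbered 5hmC reads there although the 5fC table holds fewer reads in all. In Hoxd the bin from 74561001 to 74562000 led for both, with 659 5hmC and 661 5fC reads on 27 and 23 dyads. Hoxa was led for 5hmC by the bin from 52170001 to 52171000, with 776 5hmC and 325 5fC reads on 28 and 18 dyads, and for 5fC by that from 52216001 to 52217000, with 540 5hmC reads on 17 dyads and 564 5fC reads on 12 dyads. A single cytosine of that bin, 52216761, held 146 of its 5fC reads. Hoxc was led for 5hmC by the bin from 102780001 to 102781000, with 720 5hmC and 479 5fC reads on 33 and 23 dyads, and for 5fC by that from 102849001 to 102850000, with 551 5hmC and 506 5fC reads on 16 and 13 dyads. The bin with the most 5hmC dyads of all, 42, was in Hoxd from 74513001 to 74514000, with 612 5hmC reads.

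At single bases the deepest cytosines were all in CG. In Hoxa position 52216761 on the minus strand led for both marks, with 130 5hmC and 146 5fC reads, while the plus-strand cytosine of that dyad was not listed for 5hmC and had 4 5fC reads. The deepest 5hmC cytosine of Hoxb, 96152025 on the minus strand, had 139 5hmC and 109 5fC reads, and its partner 19 5hmC reads. In Hoxc position 102778746 on the plus strand had 121 5hmC and 28 5fC reads, and in Hoxd position 74552658 on the plus strand had 89 and 61. For 5fC the leading cytosines of Hoxb, Hoxc and Hoxd were 96185614 on the minus strand with 125 reads, 102773011 on the plus strand with 106 and 74599518 on the minus strand with 93. Each of these also had 5hmC reads, 78, 36 and 52.

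Along the paralog order the marks were uneven, and no trend was tested. Each interval was divided into 10 equal parts, numbered from the end with the lowest paralogs. Parts with the same number need not hold the same paralogs in different clusters. The part with the most 5hmC dyads per kb was part 6 in Hoxa, Hoxb and Hoxc and part 4 in Hoxd. In Hoxa 5hmC dyads were most frequent in parts 5 and 6, at 15.7 and 16.0 per kb, and least in part 3 at 8.61. In Hoxb they ran from 7.75 per kb in part 2 to 16.3 in part 6, in Hoxc from 6.32 in part 10 to 13.4 in part 6, and in Hoxd from 8.22 in part 1 to 14.6 in part 4. All 20 parts of Hoxa and Hoxd, and all 10 of Hoxc, were denser than the mean of their flanks for both marks. In Hoxb part 2 was below the flank mean for both marks, at 7.75 against 9.33 for 5hmC and 4.08 against 5.21 for 5fC.

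The number of 5fC dyads per 5hmC dyad varied along the clusters. It ran from 0.378 in part 7 to 0.699 in part 1 of Hoxa, and from 0.301 in part 10 to 0.651 in part 4 of Hoxd. The range was from 0.527 to 0.704 in Hoxb and from 0.410 to 0.659 in Hoxc. The lowest parts of Hoxa, Hoxb and Hoxd were below their flank values of 0.388, 0.558 and 0.330. The lowest part of Hoxc was close to its flank value of 0.409. Such parts hold few 5fC dyads, 44 in part 10 of Hoxd and 41 in part 5 of Hoxc. The low value in part 10 of Hoxd came with 12.4 5hmC and 3.73 5fC dyads per kb. Both-strand listing of 5hmC was lowest in part 7 of Hoxd, at 18.5% (27 of 146 dyads), and in part 7 of Hoxa, at 21.5% (37 of 172). It was highest in part 1 of Hoxb, at 49.1% (40.0 to 58.2%), and in part 1 of Hoxa, at 47.7% (40.0 to 55.6%). Part 7 of Hoxd and part 7 of Hoxa had 9.25 and 9.56 5hmC reads per dyad. Part 1 of Hoxb and part 1 of Hoxa had 25.1 and 19.2. The shares of the parts were not adjusted for reads.

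**Figure D5:**
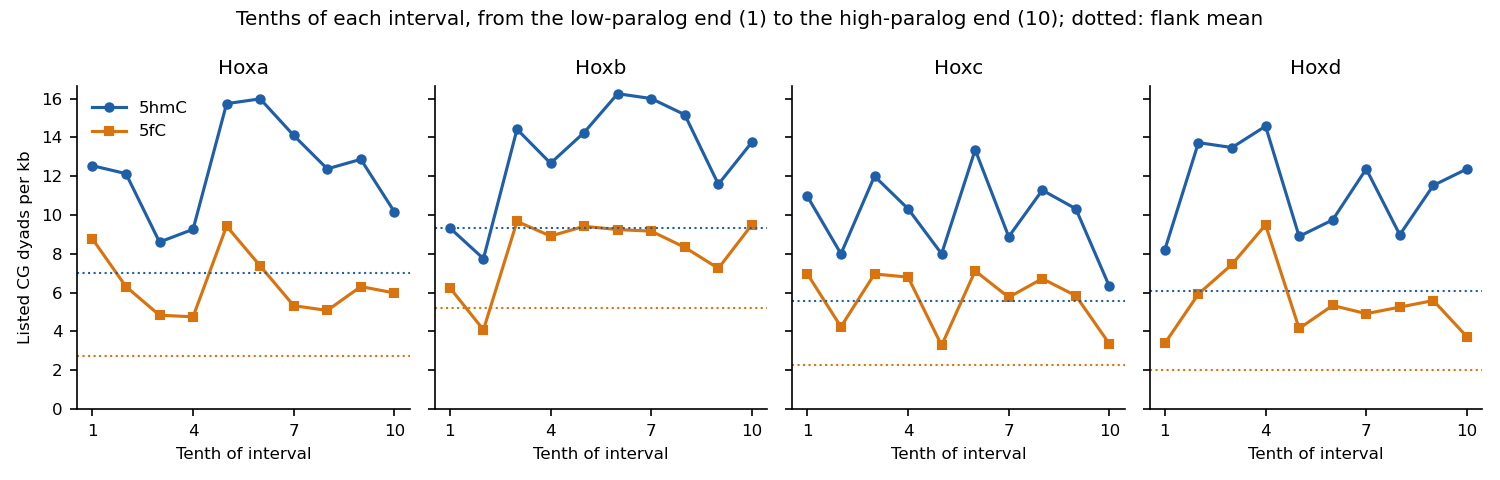
Listed CG dyads per kb (y axis) in 10 equal parts of each interval (x axis), from the end with the lowest paralog numbers (1) to the end with the highest (10), for 5hmC (blue circles) and 5fC (orange squares), with the flank means dotted. In Hoxa, Hoxc and Hoxd every part lies above the dotted line of its mark, while in Hoxb part 2 dips to 7.75 for 5hmC, below its flank mean of 9.33.

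Outside CG the listed sites of the clusters differed from those of the flanks in the base that followed the cytosine. CC made up 27.5% of the 2366 non-CG 5hmC sites in the clusters (interval 25.8 to 29.3%) against 22.0% in the flanks (21.3 to 22.7%), and CA 42.9% against 48.5%. CT was at 29.5% in both. Non-CG sites of 5fC differed from the flanks in the same direction, with CC at 26.4% against 20.5% and CA at 35.9% against 43.3%. For 5fC, CT was at 37.7% (34.9 to 40.5%) against 36.2% (34.9 to 37.6%). The numbers of CA, CC and CT in the sequence were not counted, so these are shares of listed sites only. The share of CG among all listed 5hmC cytosines was 77.0%, 74.1%, 77.0% and 77.5% in Hoxa, Hoxb, Hoxc and Hoxd against 75.8%, 69.5%, 77.1% and 78.3% in the flanks, so it was higher by more than the counting error in Hoxb alone.

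PvuRts1I is known to cut best between a modified cytosine and another cytosine on the opposite strand at a set distance. A listed CG dyad 20 to 23 bases downstream was found for 13.7% of the CG cytosines with 5hmC in the clusters (interval 12.9 to 14.5%) against 7.43% in the flanks (7.18 to 7.69%), and for 11.7% against 7.96% with 5fC. Among non-CG cytosines it was found for 72.5% with 5hmC (70.7 to 74.2%) against 65.3% in the flanks (64.5 to 66.1%), and for 64.9% (62.1 to 67.6%) against 67.9% (66.6 to 69.1%) with 5fC. Other things equal, such a share would be higher where more dyads are listed per kb, which was not tested. The number listed per kb was 11.7 in the clusters against 7.00 in the flanks for 5hmC, and 6.45 against 3.05 for 5fC. The share for non-CG 5fC cytosines was still not higher in the clusters. The shares were not adjusted for it. The part of cut-site spacing in the results above was not tested.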

How the data were processed

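The 6 Pvu-Seal-seq libraries were made from E14 DNA. Per the submitters' processing notes, the authors used CASAVA, bcl2fastq, cutadapt and Bowtie on mm9, with no versions given. The authors deposited 2 tables of whole-number read counts per listed cytosine, pooled over libraries and not normalized, with a least count of 2. The table for 5hmC was taken to be from passage 14 because its name carries the mark of the first culture, although the labels of both cultures name it. The sources used here do not give how cytosines were listed or how the 5fC libraries were made.

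Listed cytosines were assigned to CG dyads and counted in the 4 intervals, their flanks of 500 kb, 8 flank windows and windows of 120 kb or 1 kb over the nuclear chromosomes. Ratios of dyads per kb have exact conditional binomial intervals, ratios of 5fC to 5hmC dyads exact conditional odds-ratio intervals and shares Wilson intervals. Planned steps that require a count for every library could not be done. Positions named are the 3 fullest bins, 3 longest gaps and 2 deepest cytosines per mark and cluster, of which the leading ones are printed. The regions and lists were chosen with earlier results of these data known. Over the 4 clusters and flanks the tables held 110243 and 786904 5hmC reads and 71503 and 364196 5fC reads. The counting functions passed 5 of 5 checks on simulated data with 20000 dyads. Python 3.11.15, numpy 2.4.6, pandas 2.3.3, scipy 1.17.1 and matplotlib 3.10.9 were used.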

Additional observations from a re-analysis of the deposited data

How the results depend on the processing

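No paired analysis was possible because each cytosine has 1 count pooled over libraries, so leaving out libraries was not possible either. Of 60 alternative folds of cluster over flanks, 59 stayed above 1, 1 of them with an interval that includes 1 (5hmC in Hoxb with at least 10 reads). The cause of the moves was not tested. In each list, values are for Hoxa, Hoxb, Hoxc and Hoxd. With reads in place of dyads the 5hmC fold was 1.28, 0.905, 1.34 and 1.42, thus reversed in Hoxb, the 5fC fold 1.94, 1.20, 2.20 and 2.10, and the fold of 5fC per 5hmC 1.52, 1.33, 1.64 and 1.48. With at least 10 reads per cytosine these were 1.38, 1.07, 1.42 and 1.49 for 5hmC, 2.12, 1.41, 2.35 and 2.51 for 5fC, and 1.54, 1.31, 1.66 and 1.68 for 5fC per 5hmC. With at least 5 reads the 5hmC fold was 1.59, 1.26, 1.65 and 1.71. Flanks of 1 Mb raised that of Hoxc to 2.00, and trimming 10 kb from each cluster end moved no fold beyond its interval. Bins without a 5hmC dyad made up 6.15%, 4.58%, 8.40% and 4.24% at 500 bases, and 4.10%, 5.83%, 9.60% and 10.2% at 1 kb with at least 10 reads. Flank and genome-wide shares of such bins were not obtained at these settings, so that contrast was not checked there.

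The alternatives for dense windows were added after the data were seen, and each least number of reads also changed which windows were as dense as Hoxc. With at least 10 reads, 1.55%, 23.1%, 1.44% and 0.113% of 3547 windows had a lower both-strand share and 0.254%, 39.8%, 1.66% and 0.0282% fewer reads per dyad, so Hoxb no longer stood apart. With at least 5 reads, Hoxb was above 17.7% of 1625 windows in reads per dyad and 2.40% in both-strand share. In the 10 parts of a cluster a share rests on 79 to 195 5hmC dyads.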
